A study of Mus musculus with 14 samples.

Results

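Adult neocortical neurospheres were compared with adult neurospheres of the subventricular zone (SVZ), 3 arrays against 3, out of 14 arrays in the series. The 6 samples were chosen by their titles, and the comparison covered every probe set whose detection p-value was under 0.05 on at least 2 arrays. That kept 35211 probe sets, which stood for 14716 genes when each gene was represented by its brightest tested probe set over all arrays. All mice were wild type and of the CD-1 strain, an outbred stock. The neocortical group came from adult brain neocortex and the SVZ group from adult brain subventricular zone, both grown as secondary neurospheres with no treatment recorded. The adult age was not given more closely, and the labels leave unstated if the 3 samples of a group were separate mice or cultures. Every p-value therefore measures the spread between these samples only. Adult striatal spheres (3 arrays) and E14.5 embryonic spheres of dorsal forebrain (2), ventral forebrain (2) and spinal cord (1) entered the estimate of spread, and the striatal signals are given beside the comparison. The array names in the second deposited table carry codes that recur across the 3 adult regions, and their meaning is not stated.

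Neurospheres are free-floating clusters that neural stem and progenitor cells form in serum-free medium with growth factors. The SVZ, along the lateral ventricle, is a germinal zone that makes neuroblasts and glia throughout adult life, while the adult neocortex is not a neurogenic zone and its dividing cells are mostly glial. Spheres hold a mixture of stem cells, progenitors and differentiating glia and neurons. Microglia, the resident macrophages of the brain, arise from the yolk sac and not from neural stem cells. An array of bulk RNA gives 1 value for the mixture, so a larger number of cells of a type and more RNA per cell cannot be told apart in any value below.

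The spheres carried the markers of neural progenitors. Sox2, a transcription factor that maintains neural stem cells, and Nes, an intermediate filament of progenitors, were detected on all 3 arrays of both groups. The array medians ran from 270.4 to 278.8 in neocortex and from 222.1 to 244.6 in SVZ, and 64% to 65.6% of the probe sets were detected on the neocortical arrays against 60.2% to 63.7% on the SVZ arrays. The ratio of 3' to 5' control probe sets for Gapdh, a measure of RNA length, was 1.19 ± 0.14 on the log2 scale (SD, n = 3) in neocortex against 0.67 ± 0.04 (SD, n = 3) in SVZ, while that for b-actin was near 0 in both. Its part in the differences below was not tested. All 9 adult samples had high Y-linked Eif2s3y (9965 to 11980), and Xist was not detected in neocortex or SVZ. Pearson correlations between arrays of 1 group were 0.959 to 0.966 in neocortex and 0.968 to 0.972 in SVZ. Across the groups they were 0.937 to 0.942 for neocortex 1 and 0.91 to 0.925 for neocortex 2 and 3.

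Of the 14716 genes, 813 were called higher in neocortex (5.52%) and 1142 lower (7.76%), 13.3% in all, at an adjusted p under 0.05 in a limma fit with Benjamini-Hochberg adjustment. At the level of probe sets 3703 of 35211 were called (10.5%), of which 2588 (7.35%) also differed by at least 2-fold. Fits of only the 9 adult or only the 6 compared arrays called more, 6693 and 6550 probe sets. Leaving out 1 array called fewer, 1691 to 3000. List counts from such fits below stand against these totals and not against the shares of the main fit. The 10 largest rises among genes with groups that do not overlap included Mmp12, Clec4d, Ctss, C3ar1 and Cd53, and the 10 largest falls Csn3, Car9, Scg2, Esm1 and Gfap. The median change over all genes was -0.17 on the log2 scale after each array was centred on its median. The median over probe sets was -0.16 on that scale, 0.05 with the signals as deposited and -0.03 after quantile normalization. The share of calls that were higher in neocortex followed it, at 40.9% after centring, 65.3% as deposited and 58.8% after quantile normalization, so modest changes in 1 direction depend on the scaling.

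**Figure D1:**
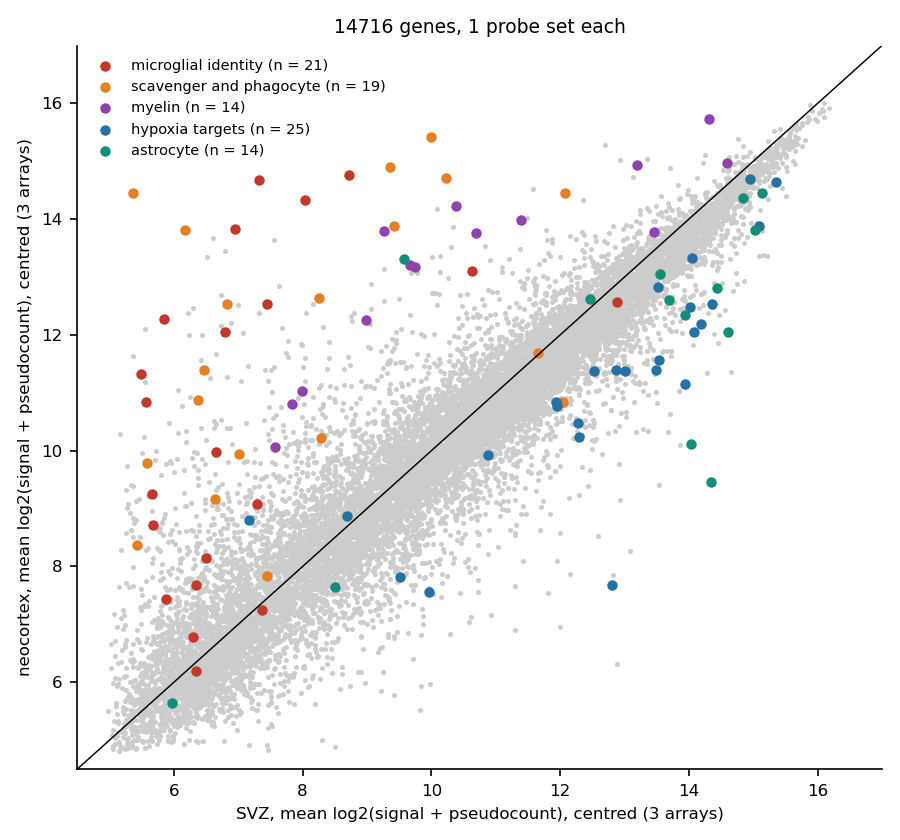
Mean log2(signal + pseudocount) of 14716 genes in SVZ spheres (x axis) and neocortical spheres (y axis), 3 arrays each, with 1 grey point per gene and 5 gene lists in colour. The microglial, scavenger and myelin genes lie mostly above the line of equal signal and the hypoxia genes mostly below it.

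Microglial genes were higher in neocortical spheres. Of 21 tested genes of the microglial identity list, 15 were called higher and 0 lower, against 5.52% and 7.76% of all genes. The list's median log2 change was 3.32. Ctss, a lysosomal cysteine protease of macrophages, had signals of 20720, 27930 and 32300 on the 3 neocortical arrays, 3133, 6389 and 4721 in striatum, and 160.2, 31.6 and 230.6 in SVZ. The lowest neocortical array was thus far above the highest SVZ array, and the striatal arrays lay between. The log2 change was 7.34 ± 0.95 (SE; limma adjusted p = 0.00046), a fold of 163. Cd53, a leukocyte tetraspanin, read 10750, 16480 and 18630 in neocortex, 885.1, 2879 and 2115 in striatum, and 134.2 on SVZ 1, 167.4 on SVZ 3 and less than both on SVZ 2 (mean 105.4 over the 3). It was detected on 0 of 3 SVZ arrays, so its mean change is given as at least 115-fold (adjusted p = 0.000604). Such a bound allows for the detection floor only and not for the spread between arrays. The log2 change of Cd53 ran from 6.06 to 7.31 over the alternatives. The other Cd53 probe set was far dimmer, with means of 61.8 in neocortex and 14.8 in SVZ. That probe set was not called (log2 change 0.92, adjusted p = 0.139). Msr1, a class A scavenger receptor, read 5024, 5710 and 9899 in neocortex, 210.7, 807.6 and 575.8 in striatum and 12.9, 15.9 and 6.1 in SVZ. Its groups were as widely apart, at least 128-fold (adjusted p = 3.23e-06). All 4 Msr1 probe sets were called higher, with lower bounds from 18.5-fold to 128-fold.

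**Figure D2:**
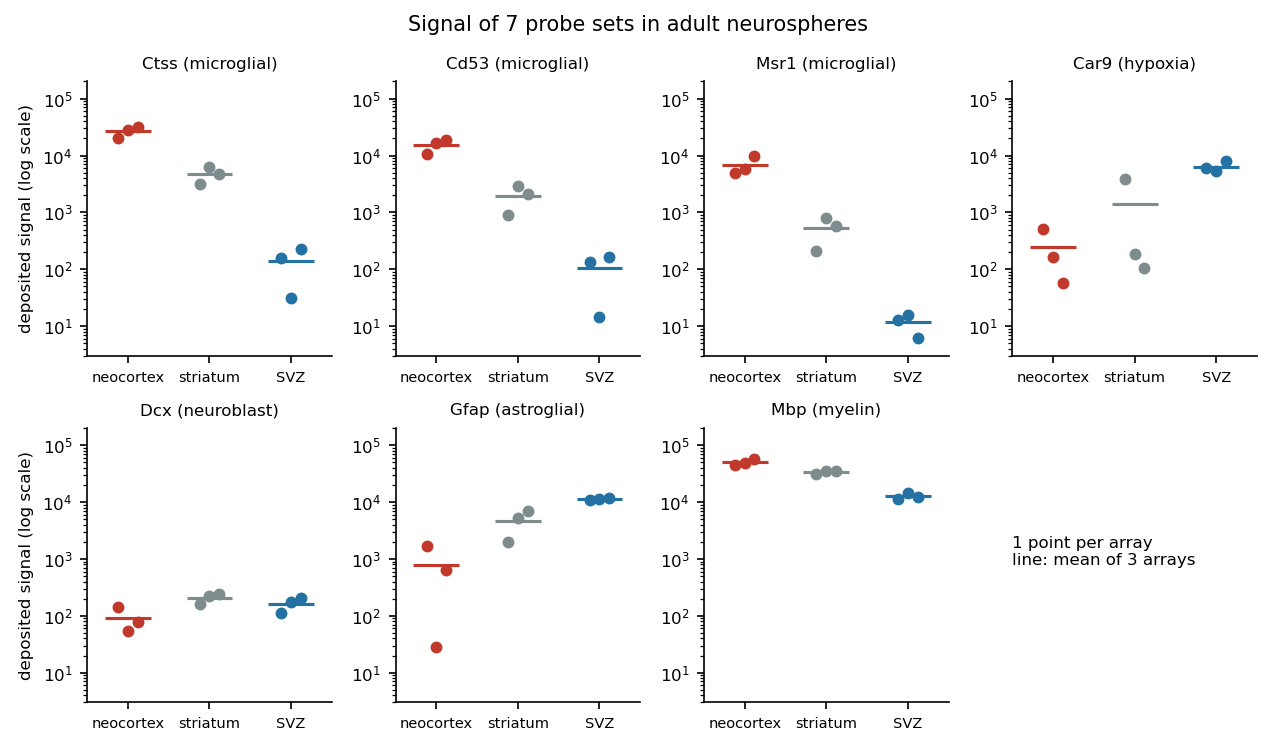
Deposited signal (log axis) of the probe sets of Ctss, Cd53, Msr1, Car9, Dcx, Gfap and Mbp on each adult array, with 1 point per array and a line at the mean of 3 arrays. Ctss runs from 20720 to 32300 in neocortex and from 31.6 to 230.6 in SVZ, Car9 and Gfap are higher in SVZ, and the Dcx groups overlap.

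The other called members included receptors and signalling proteins that macrophages need. Csf1r, the receptor for the survival factor CSF1, had signals of 3977, 5235 and 6009 in neocortex and 8.8, 48.4 and 21.3 in SVZ, at least 81.1-fold higher (adjusted p = 0.0068). Its log2 change was 6.42 ± 1.26 (SE), from 5.1 to 7.21 over the alternatives, and 2 of 3 Csf1r probe sets were called higher. Tyrobp, the adaptor through which TREM2 signals, was 17740, 20570 and 25670 in neocortex and 340.6, 103.9 and 234.6 in SVZ, a log2 change of 6.29 ± 0.69 (adjusted p = 0.000143). The 6 members that were not called hold genes that mark resting microglia of the intact brain. Cx3cr1, P2ry12 and Sall1 are named as the brightest of them over all arrays. Tmem119, Itgam and Gpr34 were chosen for mention after their values were seen. Cx3cr1, the fractalkine receptor, read 127, 227.9 and 8.4 in neocortex against 53.3, 7.6 and 92 in SVZ (adjusted p = 0.683). P2ry12, a nucleotide receptor of resting microglia, read 100.9, 160.3 and 130.2 against 163.1, 146.2 and 68.1 (adjusted p = 0.932), and its groups overlapped. Tmem119 was detected on 0 arrays of either group. Itgam and Gpr34 were detected on all 3 neocortical and 0 SVZ arrays, with adjusted p of 0.084 and 0.129. Sall1, also expressed by neural progenitors, read 4529, 8893 and 5786 in neocortex against 7438, 7349 and 5401 in SVZ. Leaving out any 1 array kept between 13 and 14 calls of this list. Its summed signal ran from 101600 to 156100 per neocortical array, 19080 to 32040 per striatal array and 8491 to 10960 per SVZ array.

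Over the 14 arrays, the genes whose log2 signal followed that of Ctss most closely were Tyrobp (r = 0.991), Cd53 (r = 0.991), C3ar1 (r = 0.982), Tubb4a (r = 0.97) and Ptprc (r = 0.965). These are descriptions over arrays that share their groups. Tubb4a encodes a beta-tubulin abundant in oligodendrocytes and was itself higher in neocortex by 2.95 on the log2 scale.

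Promoters of macrophage genes often hold the site of PU.1, the transcription factor encoded by Spi1 that specifies the myeloid lineage. Spi1 itself was called higher, with 294.7, 264.8 and 228.4 in neocortex against 53.2, 53.3 and 51.8 in SVZ (adjusted p = 0.0374). It was chosen after its values were seen. The letters GAGGAA, the core of that site, were searched on both strands from 250 bases before to 50 after each gene's start in RefSeq (build GRCm38.p6). They occur in 10 of the 16 microglial identity genes with a window (62.5%), in 6 of 22 windows of the hypoxia list (27.3%) and in 28.3% of all 27025 windows. The promoters of Ctss, Cd53 and Mmp12 are shown because these genes were among the largest rises and each holds the letters. Capitals mark GAGGAA or its reverse complement, and each sequence runs 5′ to 3′ along the gene's strand. A match is a description of the letters and not a measured binding site.
Ctss promoter, chr3:95526536-95526835, forward strand: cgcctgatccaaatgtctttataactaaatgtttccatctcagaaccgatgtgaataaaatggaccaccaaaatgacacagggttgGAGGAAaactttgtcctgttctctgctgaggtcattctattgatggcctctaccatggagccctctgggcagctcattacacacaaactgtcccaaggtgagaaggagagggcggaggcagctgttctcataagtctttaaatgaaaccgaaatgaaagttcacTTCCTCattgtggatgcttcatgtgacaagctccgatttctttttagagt
Cd53 promoter, chr3:106790100-106790399, reverse strand: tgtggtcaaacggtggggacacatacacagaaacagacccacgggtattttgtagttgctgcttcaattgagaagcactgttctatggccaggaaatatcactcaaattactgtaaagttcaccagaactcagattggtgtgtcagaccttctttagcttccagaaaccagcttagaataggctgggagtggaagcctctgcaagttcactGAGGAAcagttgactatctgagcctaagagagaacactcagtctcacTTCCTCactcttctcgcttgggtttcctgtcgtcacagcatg
Mmp12 promoter, chr9:7344147-7344446, forward strand: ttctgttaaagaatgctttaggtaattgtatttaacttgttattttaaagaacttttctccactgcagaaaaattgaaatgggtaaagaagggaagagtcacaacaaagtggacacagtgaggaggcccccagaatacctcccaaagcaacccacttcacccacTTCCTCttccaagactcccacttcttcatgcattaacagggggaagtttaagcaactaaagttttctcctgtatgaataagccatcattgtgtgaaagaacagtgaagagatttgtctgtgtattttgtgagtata

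Genes of scavenging, phagocytosis and lysosomal digestion rose with the microglial list. Of 19 tested, 16 were called higher and 1 lower (against 5.52% and 7.76% of all genes), with a median log2 change of 4.39. Mmp12, the macrophage metalloelastase, showed the largest rise of all genes with groups that do not overlap. Its signals were 15960, 24520 and 30540 in neocortex, 1078, 4141 and 2726 in striatum and 4.5, 4.7 and 21 in SVZ. It was detected on 0 SVZ arrays, and the change was at least 440-fold (adjusted p = 6.46e-07). Clec4d, a C-type lectin receptor of myeloid cells, read 14840, 12920 and 16340 in neocortex and 47.6, 4.1 and 84.9 in SVZ, at least 176-fold (adjusted p = 7.79e-06). Lyz2, the lysozyme of macrophages, was detected in both groups, at 28870, 32040 and 32750 against 779.1, 457.9 and 464.2, a fold of 46.8 (adjusted p = 2.21e-06). Cd36, a scavenger receptor for oxidised lipids, rose by 4.93 ± 0.55 on the log2 scale (adjusted p = 0.000154). Mertk, a phagocytic receptor that astrocytes also use, read 3046, 3624 and 3323 against 1744, 3716 and 3453, with overlapping groups (adjusted p = 0.976). Axl, a receptor of the same family, was the member called lower, with 1755, 2162 and 1670 in neocortex against 4708, 3711 and 2864 in SVZ (adjusted p = 0.0125).

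Complement genes showed the same direction. Of 7 tested, 5 were called higher and 0 lower (against 5.52% and 7.76% of all genes), with a median log2 change of 4.69. The 5 were the C1q chains C1qa, C1qb and C1qc, which start the classical pathway, and the anaphylatoxin receptors C3ar1 and C5ar1. C3ar1 read 9550, 14080 and 17440 in neocortex, 855.4, 2228 and 1594 in striatum and 45.3, 18.4 and 165.7 in SVZ, a log2 change of 7.07 ± 0.71 (adjusted p = 7.63e-05). C1qc read 890.2, 1538 and 1258 against 4.4, 30.1 and 11.7, at least 22-fold (adjusted p = 0.000429). The regulators Cfp and Serping1 were not called, at 234.2, 344 and 665.7 against 224.4, 506.9 and 249.5 for Cfp.

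Of 18 tested chemokines and cytokines, 7 were called higher and 0 lower, against 5.52% and 7.76% of all genes (median log2 change 1.33). Ccl3, a macrophage chemoattractant, read 14280, 7551 and 10980 in neocortex, 1936, 776.5 and 371.9 in striatum and 82, 29 and 58.3 in SVZ, at least 114-fold (adjusted p = 3.84e-05). Il1a, an inflammatory cytokine, read 873.7, 408.7 and 454.6 against 4.4, 33.6 and 1.1, at least 10.1-fold (adjusted p = 0.000288). Il33, an alarmin of adult glia chosen after its values were seen, was bright in both groups, with 34820, 42280 and 45590 against 5890, 6287 and 5332, a log2 change of 2.59 ± 0.23 (adjusted p = 3.53e-05). Ccl2, the main monocyte chemoattractant, and Cxcl1, a neutrophil chemoattractant, were not called. Ccl2 read 20400, 11040 and 7046 against 5367, 6392 and 3636 (adjusted p = 0.524). Its log2 change was positive in all 18 alternatives (0.59 to 1.38), and 1 of them called it higher (adjusted p = 0.00336). Cxcl1 read 30940, 21240 and 14500 against 26700, 22380 and 23910, with groups that overlap.

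Antigen presentation and interferon genes had 0 calls higher in neocortex, against 5.52% of all genes called higher and 7.76% lower. Of 11 tested antigen presentation genes, 0 were called higher and 1, the peptide-loading chaperone Tapbp, lower (adjusted p = 0.0432, from 0.00445 to 0.17 over the alternatives, and lost on leaving out any 1 array). B2m, the light chain of class I molecules, read 32060, 32970 and 34630 against 28160, 23200 and 22640 (adjusted p = 0.727). H2-Ab1, a class II chain of antigen-presenting cells, read 267.2, 363.7 and 548.2 against 270.5, 25.6 and 330.3 (adjusted p = 0.423). Of 16 interferon-stimulated genes, 0 were called higher and 1 lower, while 4 were lower with only the 9 adult arrays fitted and 5 with only the 6 compared arrays. For 8 of them every neocortical array was below every SVZ array, as it was for 29.2% of all genes. The gene called lower was Gbp2, a guanylate-binding protein, at 735.5, 144.3 and 41.4 in neocortex, 1574, 335.6 and 339.2 in striatum and 2079, 2484 and 2066 in SVZ (log2 change -3.63 ± 0.76, adjusted p = 0.00946). Neocortex 1 and striatum 1 were the highest of their groups for Gbp2, as for Ifit1, an interferon effector that was not called, with 1826, 266.8 and 5.5 in neocortex and 3628, 253.8 and 9.9 in striatum.

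Lists of other cells that could accompany brain macrophages gave mixed counts. Among all genes, 5.52% were called higher and 7.76% lower, and 13.5% were higher and 29.2% lower without overlap. Of the other blood cell list 4 genes were tested. S100a8, a neutrophil and monocyte protein, read 1449, 838.8 and 412.4 in neocortex and 43.5, 96.3 and 18.3 in SVZ, at least 9.68-fold higher (adjusted p = 0.00329). Cd3g of T cells and the neutrophil granule genes Mpo and Elane were not called, and all 3 read at most 98.8 on the neocortical arrays. The list's summed signal was 569.2 to 1602 per neocortical array and 113.5 to 213.7 per SVZ array. Of 12 endothelial genes, 0 were called higher and 1 lower (2 and 1 with only the 9 adult or only the 6 compared arrays fitted), and 3 were higher without overlap. Their summed signal was 1707 to 2314 per neocortical array and 2201 to 2652 per SVZ array. Pecam1, the endothelial adhesion molecule, read 175.1, 88.2 and 66.9 against 63.5, 6.2 and 7.9 (adjusted p = 0.366). The gene called lower was Flt1, a VEGF receptor, at 247.1, 80.5 and 71.1 in neocortex against 1057, 1831 and 1304 in SVZ (log2 change -3.5 ± 0.68, adjusted p = 0.00665). Of 14 mural and fibroblast genes, 0 were called higher and 3 lower, namely Fn1, Col5a1 and Tagln, and the Tagln call (adjusted p = 0.0449) was lost on leaving out any 1 array other than neocortex 1. With only the 9 adult or only the 6 compared arrays fitted, 2 were called higher and 6 lower, and 4 were higher and 7 lower without overlap. The summed signal of this list was 15390 to 22870 per neocortical array and 15590 to 23390 per SVZ array. Col5a1, a fibrillar collagen chain, read 1731, 1867 and 1292 against 4987, 5507 and 4434 (adjusted p = 0.000633). The part of other cell types in the macrophage result was not tested.

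**Figure D3:**
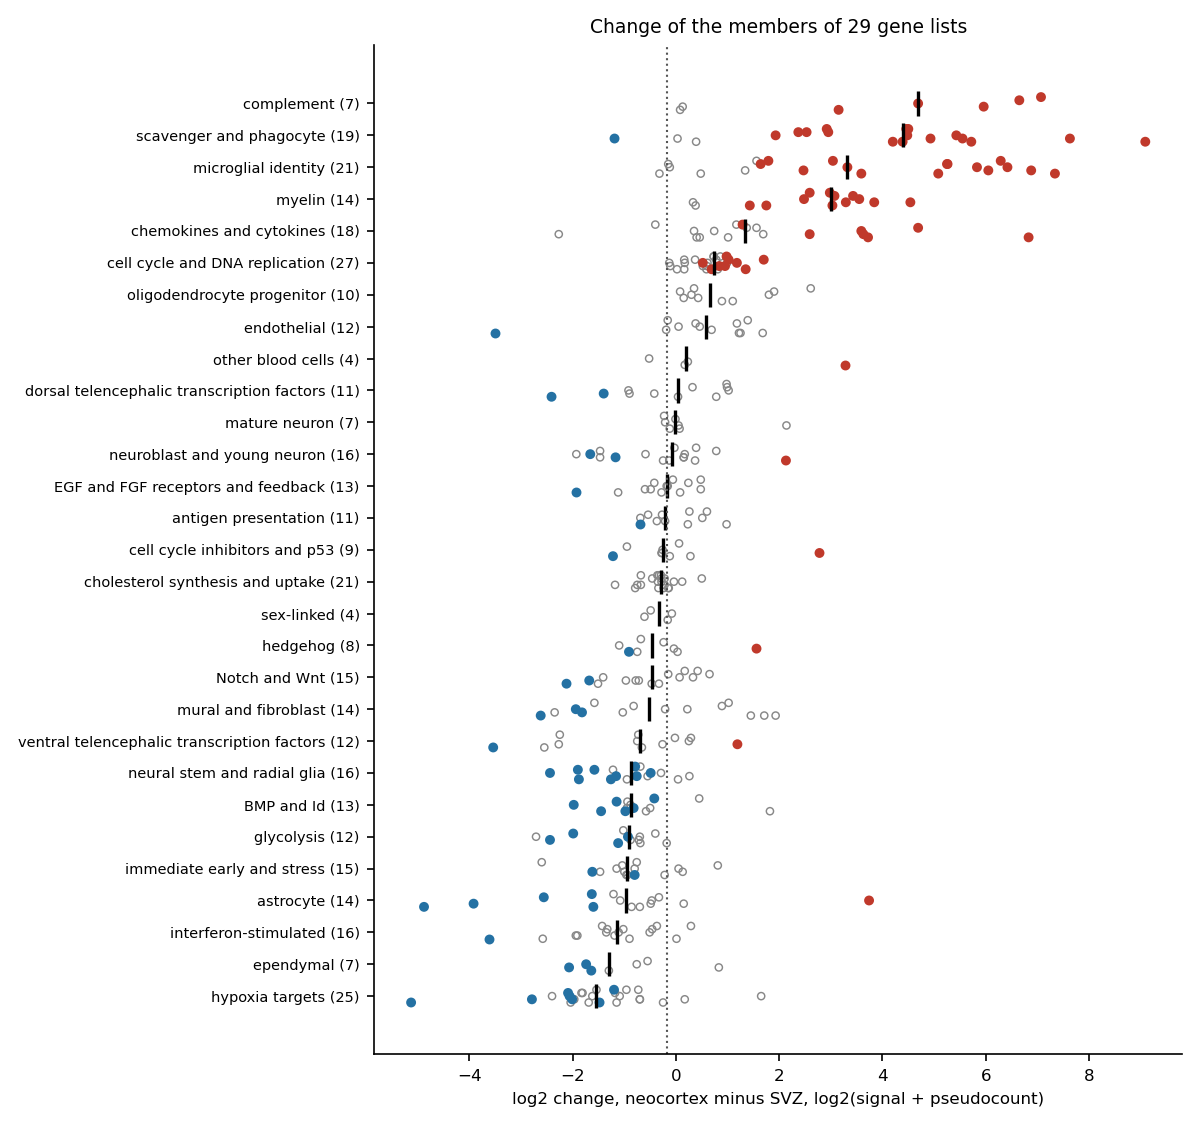
Log2 change (neocortex minus SVZ) of the tested members of 29 gene lists, 1 point per gene, with the number tested in brackets. Filled points passed an adjusted p under 0.05 (red higher in neocortex, blue lower), the bar is the list median and the dotted line the median of all genes, -0.17; the complement, scavenger, microglial and myelin lists have medians of 4.69, 4.39, 3.32 and 3.01 and the hypoxia targets -1.54.

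Myelin genes were higher in neocortical spheres. Oligodendrocytes make myelin from a small set of abundant proteins and lipids. Of 14 tested myelin genes, 12 were called higher and 0 lower (against 5.52% and 7.76% of all genes), with a median log2 change of 3.01. All 14 had groups that do not overlap, where 13.5% of all genes were higher without overlap. Mbp, myelin basic protein, read 44080, 48770 and 56140 in neocortex, 31120, 35500 and 35780 in striatum and 11450, 14230 and 12020 in SVZ. The regions thus kept apart on every array, with a log2 change of 1.77 ± 0.21 (adjusted p = 0.00024), and 6 of 8 Mbp probe sets were called higher. Mog, a surface glycoprotein of mature myelin, read 10760, 17060 and 16520 against 743.7, 627.5 and 286, a fold of 23.2 (adjusted p = 0.000569). Mag, an adhesion glycoprotein of the inner myelin layer, read 7042, 10160 and 12390 against 715.4, 784.8 and 574.7, a fold of 11.7 (adjusted p = 2.16e-05). Ugt8a, the enzyme that makes galactocerebroside, rose by 3.84 ± 0.34 on the log2 scale (adjusted p = 3.53e-05). Cnp, an early myelin enzyme, read 28010, 34630 and 36450 against 22430, 22100 and 20690 and was not called (adjusted p = 0.639), nor was Sirt2.

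Genes of the oligodendrocyte progenitor, the dividing cell that precedes the myelinating one, did not pass the test. Of 10 tested, 0 were called in limma, against 13.3% of all genes, with a median log2 change of 0.66. The lowest log2 change was 0.08, so all were positive. Without overlap, 6 were higher and 0 lower, against 13.5% and 29.2% of all genes. When only the 9 adult arrays were fitted, 4 of the 10 were called higher, as were 2406 of 35211 probe sets. Cspg4, the NG2 proteoglycan, read 7455, 7941 and 6091 in neocortex, 5052, 4217 and 6205 in striatum and 2540, 1074 and 1581 in SVZ, with groups that do not overlap (adjusted p = 0.183). Pdgfra, the receptor for the progenitor mitogen PDGF, read 2526, 3077 and 2217 against 2004, 833.4 and 1001 (adjusted p = 0.288). Olig2, a lineage transcription factor, read 7826, 10630 and 10590 against 6426, 6827 and 6915 (adjusted p = 0.898).

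Astrocyte genes were mostly lower in neocortical spheres. Of 14 tested, 5 were called lower and 1 higher, against 7.76% and 5.52% of all genes, with a median log2 change of -0.97. The counts were 10 and 1 with only the 9 adult arrays fitted, and 3 and 1 after quantile normalization. Gfap, the intermediate filament of astrocytes and adult SVZ stem cells, read 1668, 28.2 and 647.8 in neocortex, 1943, 5212 and 6912 in striatum and 11050, 11290 and 11860 in SVZ. The SVZ arrays lay close together, whereas neocortex 2 was far below neocortex 1 and 3. The log2 change was -5.05 ± 0.94 (adjusted p = 0.00488), and all 3 Gfap probe sets were called lower, although the call of the brightest, which stands for the gene in the list, was lost in 8 of 18 alternatives (adjusted p up to 0.109). These were leaving out neocortex 2 or any 1 SVZ array, quantile normalization, a smaller pseudocount and a variance model without a trend or with a robust one. Aqp4, the astrocyte water channel, read 1773, 745.2 and 1002 against 17510, 14110 and 12960 (log2 change -3.92 ± 0.77, adjusted p = 0.00692). Slc1a2, the main astrocyte glutamate transporter, read 6983, 9197 and 6074 against 17920, 21760 and 19210 (adjusted p = 7.9e-05; it was chosen after its values were seen). S100b, a calcium-binding protein of astrocytes that oligodendrocyte cells also make, went the other way, with 7447, 12410 and 12080 against 452.1, 746.8 and 798.6 (log2 change 3.74 ± 0.44, adjusted p = 0.000262). Glul and Gja1, a glutamine-making enzyme and a gap junction protein, were not called, with adjusted p of 0.111 and 0.157.

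Ependymal genes are expressed by the ciliated cells that line the ventricle next to the SVZ. Of 7 tested, 3 were called lower in neocortex and 0 higher (median log2 change -1.3), against 7.76% and 5.52% of all genes. The count was 5 with only the 9 adult arrays fitted and 2 with the signals as deposited. Rarres2, which encodes chemerin, read 2173, 3009 and 1843 in neocortex, 4180, 3317 and 4429 in striatum and 10370, 7154 and 7926 in SVZ (log2 change -2.07 ± 0.23, adjusted p = 0.000166). Tekt1, a protein of ciliary microtubules, read 200.3, 220.8 and 151 against 504.5, 575.8 and 722.4 (adjusted p = 0.00353). Foxj1, the regulator of motile cilia, read 837.7, 1461 and 1487 against 4182, 2860 and 3139, with groups that do not overlap (adjusted p = 0.0415, from 0.000867 to 0.153 over the alternatives, and lost on leaving out any 1 array).

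Neural stem and radial glia genes were called lower in neocortex for 9 of 16 tested and higher for 0, against 7.76% and 5.52% of all genes. Their median log2 change was -0.87. The count was 6 with the signals as deposited and 5 after quantile normalization, and it was 5 without SVZ 1, 4 without neocortex 2 and 5 without neocortex 3. Hes5, an effector of Notch signalling, read 411.3, 360 and 536.6 in neocortex, 478.1, 627.9 and 534.3 in striatum and 1920, 1328 and 1198 in SVZ (log2 change -1.9 ± 0.23, adjusted p = 0.000312). Nr2e1, the nuclear receptor TLX of adult stem cells, read 3018, 2419 and 2151 against 5793, 7315 and 6598 (adjusted p = 0.0016). Sox1, an early neuroectodermal factor, read 2186, 500.1 and 1789 against 6470, 6168 and 5410 (adjusted p = 0.00355), and neocortex 2 was again the lowest array. Nes read 6646, 5741 and 7506 against 10400, 15880 and 15560 (adjusted p = 0.00434). Vim and Slc1a3, a filament and a glutamate transporter of radial glia, were not called, with 57350, 51310 and 54340 against 58010, 55840 and 58060 for Vim.

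Of 16 tested neuroblast and young neuron genes, 1 was called higher and 2 lower, against 5.52% and 7.76% of all genes. Their median log2 change was -0.08. With only the 9 adult or only the 6 compared arrays fitted, 2 were called higher and 6 lower, and with array weights 2 and 5. Without overlap, 3 were higher and 6 lower, against 13.5% and 29.2% of all genes. Dcx, the microtubule protein of migrating neuroblasts, read 143.9, 53.2 and 77.7 in neocortex, 159.7, 220.9 and 242.5 in striatum and 111.7, 173.6 and 201.6 in SVZ. The neocortical and SVZ arrays overlapped and the log2 change of -0.93 ± 0.46 did not pass the test (adjusted p = 0.219), nor did that of the other 3 Dcx probe sets. The same probe set read 4393 to 20220 in embryonic spheres. Tubb3, a neuronal tubulin, was called higher, with 2515, 2300 and 1958 against 147.4, 702 and 678.5 (adjusted p = 0.0127). Meis2, a transcription factor of striatal and olfactory neuroblasts, was lower, with 3894, 2106 and 1640 against 6709, 6786 and 6183 (adjusted p = 0.0069), as was Cd24a, a surface protein of neuroblasts and ependymal cells, whose call was lost without neocortex 2 (adjusted p = 0.0103, from 0.000107 to 0.0526 over the alternatives). Of 7 mature neuron genes, 0 were called in limma, and 1 was called when only the 9 adult arrays were fitted. Rbfox3, the neuronal nuclear antigen, was detected on 0 arrays of either group.

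Transcription factors that mark forebrain territories were called about as often as all genes, of which 5.52% were higher and 7.76% lower. Of 12 ventral factors, 1 was called lower and 1 higher, and 4 lower and 1 higher with only the 9 adult arrays fitted. Six3, a homeobox factor of the ventral forebrain, read 44.4, 176.3 and 139.6 in neocortex, 1065, 729 and 1185 in striatum and 1534, 1224 and 1244 in SVZ (log2 change -3.54 ± 0.36, adjusted p = 8.09e-05). The striatal arrays thus lay near the SVZ arrays and apart from neocortex. Nkx6-2, a homeobox factor also found in oligodendrocytes, was higher, with 1001, 1250 and 1415 against 426.4, 381.7 and 533.2 (adjusted p = 0.00817). Dlx1 and Dlx2, which drive interneuron fate, were not called. Dlx2 read 2615, 455.9 and 478.2 in neocortex against 3976, 3104 and 3689 in SVZ (adjusted p = 0.0778), and 4 ventral factors were called without neocortex 1, its highest array. Of 11 dorsal factors, 0 were called higher and 2 lower, although neocortex is a dorsal territory. Emx2, a factor of cortical patterning that adult SVZ cells also express, read 3571, 1268 and 1762 in neocortex, 6077, 4634 and 4670 in striatum and 9943, 9279 and 8692 in SVZ (log2 change -2.41 ± 0.33, adjusted p = 0.000649). Lhx2, a LIM homeobox factor of cortical progenitors, read 1075, 993.6 and 1123 against 2563, 2331 and 2494 (adjusted p = 0.00541). Emx1, which marks the embryonic cortical lineage, read 133.6, 102.8 and 113.8 against 119.5, 91.1 and 73.9, with overlapping groups.

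Hypoxia target genes were lower in neocortical spheres. When oxygen is scarce, hypoxia-inducible factors escape degradation and switch on genes of glucose uptake, glycolysis, acid balance and vessel growth, and neurospheres have oxygen gradients from rim to core. Of 25 tested, 7 were called lower and 0 higher (against 7.76% and 5.52% of all genes), with a median log2 change of -1.54. Car9, a carbonic anhydrase of the cell surface, read 519.9, 167.7 and 58.1 in neocortex, 3904, 185.4 and 104.2 in striatum and 5969, 5276 and 7911 in SVZ. All 3 neocortical arrays were below all 3 SVZ arrays, and striatum 1 stood apart from striatum 2 and 3. The log2 change was -5.13 ± 1.21 (adjusted p = 0.0178, from 2.24e-05 to 0.085 over the alternatives), and the call was lost without SVZ 1, SVZ 3, neocortex 2 or neocortex 3. Vegfa, the growth factor of blood vessels, had neocortex 1 and striatum 1 as the highest arrays of their groups, with 5116, 1796 and 1286 in neocortex, 11120, 2769 and 2705 in striatum and 15460, 12130 and 13960 in SVZ (log2 change -2.79 ± 0.71, adjusted p = 0.0265). P4ha1, a collagen prolyl hydroxylase, read 4016, 2202 and 2268 against 11530, 7744 and 11550 (adjusted p = 0.0281). The Vegfa and P4ha1 calls were lost on leaving out any 1 array other than neocortex 1, with adjusted p up to 0.117 and 0.105. Pdk1, the kinase that turns pyruvate away from the mitochondrion, read 1812, 1036 and 915.2 in neocortex, 4163, 1546 and 1971 in striatum and 3884, 4289 and 5134 in SVZ (log2 change -2.06 ± 0.4, adjusted p = 0.00621), and it passed in all 18 alternatives. Adm and Ndrg1, both known hypoxia targets, were not called, with 29190, 23820 and 28460 against 30540, 24900 and 28240 for Adm.

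The number of hypoxia calls depended on single arrays, as did that of all calls. It was 1 without SVZ 1, without SVZ 3, without neocortex 2 or without neocortex 3, 4 without SVZ 2 and 8 without neocortex 1. Among all probe sets, the calls lower in neocortex were 899, 1096, 968, 837, 1211 and 1761 in the same order of fits. With only the 9 adult arrays fitted 15 hypoxia genes were called, and with only the 6 arrays of this comparison 19, all lower in neocortex. Among all probe sets these fits called 4287 and 4325 lower, against 2188 in the main fit. For 18 of the 25 genes every neocortical array was below every SVZ array, where 29.2% of all genes were. The summed signal of the list ran from 112600 to 184700 per neocortical array, 124300 to 297200 per striatal array and 230000 to 287400 per SVZ array. The genes whose log2 signal followed that of Car9 most closely over the 14 arrays were Vegfa (r = 0.96), Slc2a3 (r = 0.958), Bsg (r = 0.957), Ero1a (r = 0.951) and Pfkp (r = 0.95), given as a description.

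The core letters of the hypoxia response element, ACGTG, were searched on both strands in the same promoter windows. They occur in 13 of the 22 hypoxia targets with a window (59.1%), in 3 of 16 microglial identity windows (18.8%) and in 19.7% of all 27025 windows. The palindrome that reads the same on both strands was counted on each. The promoters of Car9 and P4ha1 are shown because both genes were called lower and hold the letters just before the gene start, at -18 and -16 with the first base of the gene as 0. Capitals mark ACGTG or its reverse complement. The Vegfa and Pdk1 windows do not hold these letters, which says nothing about sites elsewhere.
Car9 promoter, chr4:43506776-43507075, forward strand: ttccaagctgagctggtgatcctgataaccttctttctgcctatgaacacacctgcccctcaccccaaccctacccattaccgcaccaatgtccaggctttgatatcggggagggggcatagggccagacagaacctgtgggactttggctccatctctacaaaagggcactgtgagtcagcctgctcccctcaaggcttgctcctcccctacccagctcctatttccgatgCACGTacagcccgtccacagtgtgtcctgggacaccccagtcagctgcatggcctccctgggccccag
P4ha1 promoter, chr10:59323046-59323345, forward strand: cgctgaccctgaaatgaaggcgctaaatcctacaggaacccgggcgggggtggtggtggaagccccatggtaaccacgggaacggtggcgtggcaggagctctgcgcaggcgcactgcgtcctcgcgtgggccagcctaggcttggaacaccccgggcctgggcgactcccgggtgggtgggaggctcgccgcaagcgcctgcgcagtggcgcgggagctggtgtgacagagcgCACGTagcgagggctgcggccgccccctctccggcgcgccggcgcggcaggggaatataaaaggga

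Several glycolysis genes are themselves hypoxia targets. Of 12 tested, 4 were called lower and 0 higher, against 7.76% and 5.52% of all genes (median log2 change -0.9). Pfkl, a subunit of phosphofructokinase, read 3582, 957.8 and 1056 in neocortex, 8690, 2485 and 1960 in striatum and 6590, 6817 and 8816 in SVZ (log2 change -2.44 ± 0.55, adjusted p = 0.014). Neocortex 1 and striatum 1 were again the highest of their groups, and the call was lost without SVZ 3, neocortex 2 or neocortex 3 (adjusted p up to 0.0693). Pfkm, the muscle-type subunit, read 4824, 4866 and 4222 against 7857, 7198 and 7868 (adjusted p = 0.00176). Aldoa and Pgk1, later enzymes of the pathway, were not called, with 33100, 31370 and 32280 against 47860, 42270 and 45150 for Aldoa. The count was 2 without SVZ 1 or SVZ 2 and 1 without SVZ 3, neocortex 2 or neocortex 3. With only the 6 arrays fitted it was 11. Cholesterol genes, a housekeeping pathway of glia, had 0 of 21 called in limma and 6 called lower with only the 6 arrays fitted.

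**Figure D4:**
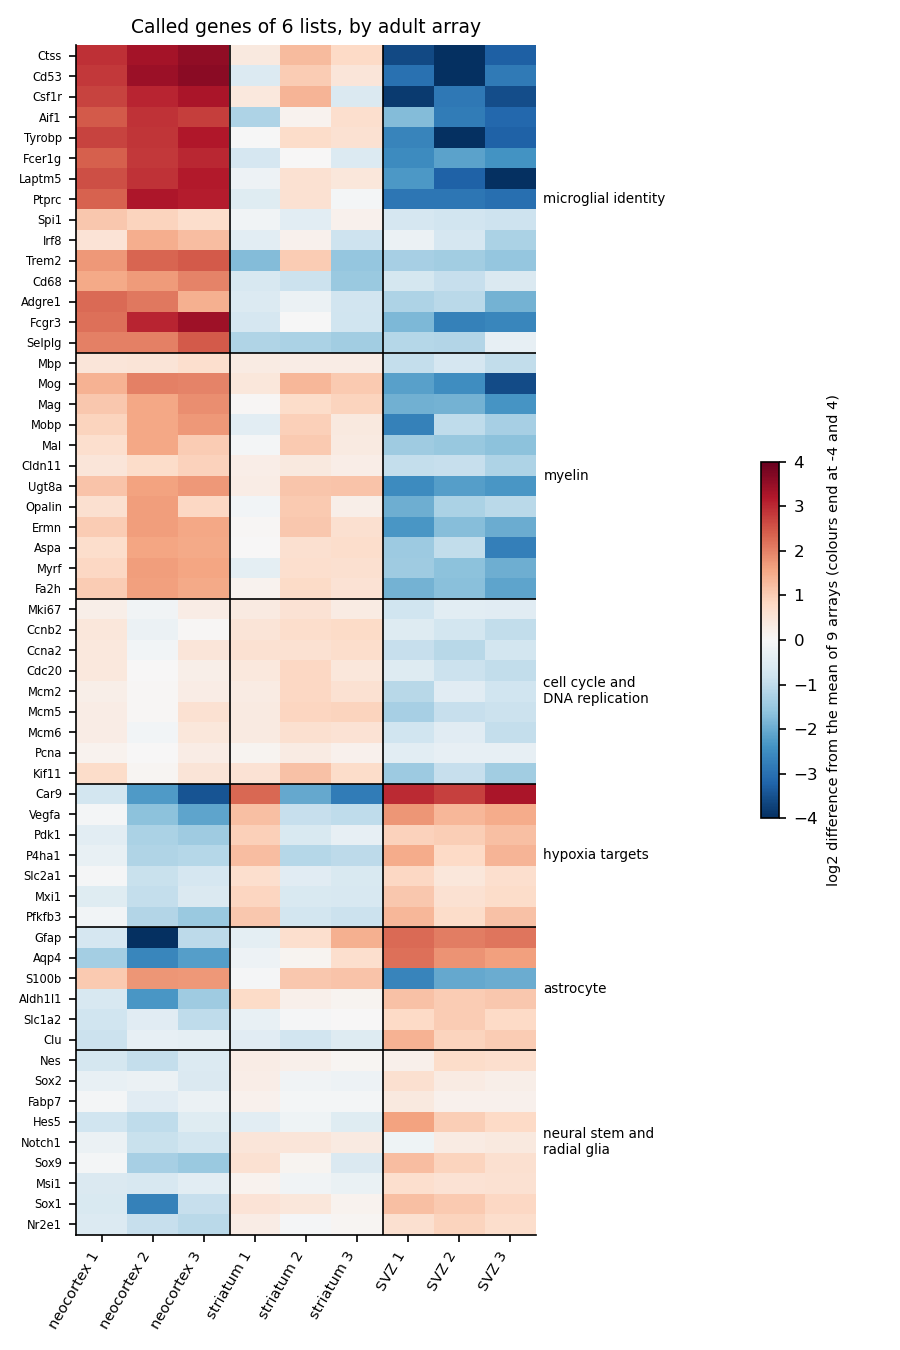
Called genes of 6 lists (rows) on the 9 adult arrays (columns), coloured by the log2 difference from each gene's mean over these arrays, with colours ending at -4 and 4. Microglial genes are high on the 3 neocortical arrays and low on the SVZ arrays, and the hypoxia genes of striatum 1 stand above those of striatum 2 and 3.

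Cell cycle genes were higher in neocortical spheres. Of 27 tested genes of the cell cycle and DNA replication, 9 were called higher and 0 lower, against 5.52% and 7.76% of all genes. The median log2 change was 0.73. Without overlap, 17 were higher and 1 lower, against 13.5% and 29.2% of all genes. Kif11, a mitotic kinesin, read 5387, 3558 and 4817 in neocortex, 4276, 7162 and 5463 in striatum and 975.2, 1513 and 1124 in SVZ (log2 change 1.7 ± 0.24, adjusted p = 0.000893). Mcm5, part of the replication helicase, read 7750, 6699 and 9639 against 2060, 2933 and 3148 (adjusted p = 0.00118). Ccna2, the cyclin of S and G2 phase, read 7871, 5625 and 8535 against 2602, 2443 and 3250 (adjusted p = 0.00678). The D-type cyclins Ccnd1 and Ccnd2 were not called, with 35300, 37840 and 38070 against 33900, 35310 and 34290 for Ccnd2. The count was 15 with the signals as deposited and 14 after quantile normalization, and it was 5 without SVZ 1 and 4 without SVZ 3, neocortex 1 or neocortex 3. Among 9 inhibitors and p53 genes, Cdkn1c, which encodes the inhibitor p57, was higher, with 1306, 1310 and 3388 against 218.3, 122.5 and 304.2 (adjusted p = 0.000845). Cdkn1b, which encodes p27, was lower (adjusted p = 0.0174, lost without SVZ 1, SVZ 3, neocortex 2 or neocortex 3, up to 0.081). Cdkn2a, the locus of p16 and p19, was not called, with 224.3, 535.9 and 353.5 against 416.1, 353.9 and 236.5.

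Most signalling lists had few calls, against 5.52% of all genes called higher and 7.76% lower. The spheres are grown in EGF and FGF, and of 13 receptor and feedback genes of these pathways 1 was called lower (1 higher and 3 lower with only the 9 adult arrays). This was Fgfr3, a receptor of astrocytes and progenitors, at 3798, 1393 and 2509 in neocortex against 6558, 8847 and 8467 in SVZ (adjusted p = 0.00188). Egfr read 4060, 3570 and 2875 in neocortex, 6216, 5556 and 5617 in striatum and 7128, 6388 and 6111 in SVZ, apart on every array but not called (adjusted p = 0.601). In 3 of 18 alternatives Egfr was called lower (adjusted p down to 0.000245). Of 13 BMP and Id genes, 6 were called lower and 0 higher. Smad1, which carries the BMP signal to the nucleus, read 9874, 6456 and 5740 against 14550, 13150 and 13550 (adjusted p = 0.00719). That count was 3 lower as deposited or after quantile normalization, and 1 or 2 on leaving out any 1 array other than neocortex 1. Of 8 hedgehog genes 1 was higher and 1 lower, and neither call held without SVZ 1, SVZ 2, neocortex 1 or neocortex 2. Of 15 Notch and Wnt genes 2 were lower, and 6 with only the 9 adult arrays. Hey1, a Notch target, read 9125, 3996 and 4004 in neocortex, 14820, 11060 and 11000 in striatum and 18510, 20520 and 20690 in SVZ (log2 change -2.12 ± 0.29, adjusted p = 0.000668). Of 15 immediate early and stress genes 2 were lower (8 lower and 1 higher with only the 9 adult arrays), among them Dusp1, a phosphatase that ends MAP kinase signals, at 5981, 6697 and 6533 against 8552, 8924 and 11720 (adjusted p = 0.00378). Fos, the immediate early gene, read 11230, 11750 and 13990 against 18830, 18830 and 23830 and was not called (adjusted p = 0.748). It was called lower in 3 of 18 alternatives (adjusted p down to 0.000106).

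Several of the 10 largest falls lay outside these lists. Csn3, a casein known from milk, read 112.2, 93.4 and 4.3 in neocortex, 1343, 962 and 240.4 in striatum and 4908, 7765 and 7580 in SVZ (log2 change -6.57 ± 0.64, adjusted p = 5.98e-05). Every SVZ array exceeded every striatal array, which in turn exceeded every neocortical array. Scg2, a granin of secretory vesicles, read 160.3, 319.2 and 3.7 against 1842, 6756 and 3701 (adjusted p = 0.00132). Esm1, the proteoglycan endocan, read 228.3, 38.4 and 742.8 against 5924, 6324 and 6930 (adjusted p = 0.000914). Cyp2d22, a cytochrome P450, read 379.6, 206.4 and 301.4 in neocortex, 2082, 1317 and 2081 in striatum and 7892, 6611 and 8618 in SVZ (adjusted p = 0.00034). Vdr, the vitamin D receptor, was detected on 0 neocortical arrays and was at least 14.4-fold lower there (adjusted p = 0.000443). Among the 10 largest falls were also Car4, a second carbonic anhydrase, Gm266 and the collagen gene Col12a1, with log2 changes of -4.38, -4.27 and -4.27.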

How the data were processed

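Secondary neurosphere RNA was hybridised to Affymetrix Mouse Genome 430 2.0 arrays of 1 colour, 14 in all, with 1 array for each sample, per the labels. The authors deposited an intensity on a linear scale for every probe set (0.1 to 106887.1) and, in a second table, its detection p-value, per the file headers. Software version and scaling target: not given in the sources used here. The series text states that GeneSpring GX and normalization to the median were used for later values, which were not used here.

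A pseudocount of 27 was added to each signal before taking log2 (0.1 times 269.95, the median of the array medians), and each array was centred on its median. Fold changes on this scale understate the change of dim probe sets. The 64 control probe sets were left out. Testing was limited to probe sets with a detection p-value under 0.05 on 2 or more arrays, which left out 9826. In R 4.3.3, limma 3.58.1 fitted 1 mean for each of 6 groups to all 14 arrays, with a variance trend, two-sided, and with Benjamini-Hochberg adjustment over 35211 probe sets. The threshold for a call was an adjusted p under 0.05. Every adjusted p in the text comes from this fit or, where stated, from an alternative.

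Probe sets were named from GEO's platform annotation, with symbols checked against RefSeq. It gives 1 symbol for 34945 probe sets and several for 945, while 9160 have no entry and are unnamed here. The tested probe set with the highest mean log2 signal stands for a gene. Of the 7532 genes with more than 1 tested probe set, 1089 were called, and 621 of these had another probe set called the same way. In 3 genes probe sets were called in both directions. The metrics table names a group but not a sample, so detection was counted per group, and its 14 signal columns were not used. Where no array of the dimmer group detected a probe set, the fold is a lower bound, set on each array against the higher of its own signal and the lowest signal among probe sets detected throughout that group. It allows for the detection floor only and not for the spread between arrays, and alternatives can give smaller changes. Precision is limited by how few arrays each group has.

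The compared samples, the 7 probe sets and the 29 gene lists were chosen with earlier results of these data known, and of 444 list entries 391 were tested. The genes named are the 7 probe sets of Ctss, Cd53, Msr1, Car9, Dcx, Gfap and Mbp, the 10 largest rises and 10 largest falls among calls whose groups do not overlap, members of each list (up to 4 largest calls, up to 3 brightest that were not called and the first 3 listed) and the 5 genes most like Ctss and Car9. Others are said to have been chosen after their values were seen. The fit was also run on simulated arrays with independent noise and known changes. That run cannot show how the fit handles shared preparations, single odd arrays or scaling. Promoter windows came from RefSeq (GRCm38.p6). Alternatives changed the pseudocount, the scaling, the filter, the arrays fitted, the variance model and the probe set that stands for a gene, and left out each array in turn.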

Additional observations from a re-analysis of the deposited data

How the results depend on the processing

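Of 206 named probe sets 93 were called, and 67 of them passed in all 18 alternatives run for single probe sets, 26 lost the call in at least 1, and 0 changed sign as a call, while 49 that were not called passed in at least 1. The 3703 called probe sets became 6107 once arrays were weighted, 6550 in a fit of the 6 compared arrays alone, 6693 in a fit of the 9 adult arrays and 1360 at an adjusted p under 0.01. Leaving out 1 array gave 1691 (without neocortex 3) to 3000 (without neocortex 1) calls, with 1876 without SVZ 1, 2271 without SVZ 2, 2066 without SVZ 3 and 1884 without neocortex 2, and 1444 to 2448 calls of at least 2-fold. Each such fit has fewer arrays. The 123 called genes of the lists became 208 with the 6 arrays and 198 with the 9 adult arrays, and 87 to 115 without 1 array. Of the 7 fixed probe sets 6 were called, and 5 to 6 without 1 array. With the replicate number as a block on the 6 arrays, 7152 probe sets were called, 3626 of them shared with the 3703, and 223 genes of the lists. Deviations of same-numbered samples from their group means correlated only weakly (0.031, 0.064 and 0.04, each the highest for its samples). Such deviations cancel out within a group, so the correlations are tied to each other and cannot decide on a pairing. Codes in the array names recur across the adult regions with no stated meaning, so whether same-numbered samples share a preparation is not settled here. The causes of these changes were not tested. Probe sets detected on 0 arrays of a group have bounds only: 589 were detected on 3 neocortical and 0 SVZ arrays and 154 the reverse.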

Other observations

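Outside the gene lists, the called genes with groups that do not overlap held several families, all chosen after their values were seen and given without a test of the family. Further genes of motile cilia were lower in neocortical spheres, among them Cfap126 (429.7, 234.2 and 467.1 in neocortex against 3452, 3835 and 3446 in SVZ, log2 change -3.42), Cfap54 (881.7, 496.6 and 458 against 4251, 4814 and 4208, log2 change -3.07), Drc1 (log2 change -2.11) and Enkur (log2 change -2.79). Vax1, a homeobox factor of the ventral forebrain, read 4.7, 2.1 and 2.6 against 396.9, 160 and 381.3, at least 7.59-fold lower. The antisense gene Six3os1, next to Six3, was at least 13.6-fold lower. Calb2, the calretinin of a class of interneurons, read 135.7, 6.8 and 20.6 against 1646, 823.9 and 470.2 (log2 change -4.01). Timp1, an inhibitor of metalloproteinases, read 1705, 228.3 and 734.1 against 10020, 13060 and 8825 (log2 change -4.13).

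Among the genes higher in neocortex, Reln, which encodes the extracellular protein reelin, read 2951, 4072 and 4188 against 100.4, 323.9 and 224 (log2 change 3.84). Dmrt3, a dorsal forebrain factor, read 464, 141.8 and 1364 against 23.9, 31.5 and 18.7, at least 8.16-fold higher. Afp, the fetal serum protein, read 998.4, 1360 and 2153 against 31.4, 30.8 and 19.1 (log2 change 4.55). Igf1, a growth factor that macrophages also secrete, read 3632, 7054 and 8609 against 360.8, 130.5 and 236.8 (log2 change 4.38). Gjb1 and Gjc3, the connexins of oligodendrocytes, rose by 3.97 and 4.12 on the log2 scale.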
